A study of Mus musculus with 3 samples.

Results

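The enzymes that make and break sphingomyelin, and those that turn ceramide into other complex sphingolipids, are encoded by Smpd1, Smpd2, Smpd3, Smpd4, Sgms1, Sgms2, Ugcg and Cerk. These 8 genes, of 21887 protein-coding genes on chromosomes 1 to 19, X and Y, were chosen by name for their place in the pathway. For each gene the H3K9ac summits inside its mm10 record and within 20 kb of either end were collected, a stretch called its locus here. H3K9ac, the acetylation of a lysine of histone H3, is found at promoters and enhancers in use. It was mapped by CUT&Tag, in which an antibody directs a transposase to the mark, in haematopoietic stem cells (HSCs) sorted from bone marrow of wild-type mice, 50000 cells to an assay. There was 1 library in each of 3 groups: old HSC ABC, from mice of 18 to 24 months, with the letters ABC in its title, whose meaning the labels leave unsaid; old HSC, of the same age range; and young HSC, from mice of 2 to 4 months. The ages were read from the protocol and the letter that opens each title. The sources used here give no strain, sex, sorting markers or pooling of mice.

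Sphingomyelin is the main sphingolipid of the plasma membrane. Sphingomyelinases cut it to ceramide, sphingomyelin synthases join ceramide to phosphocholine again, and ceramide can also be glucosylated or phosphorylated. Ceramide that is deacylated instead yields sphingosine, the substrate of the sphingosine kinases, so that route and these enzymes draw on the same lipid. The title of the series names sphingosine metabolism in aged HSCs.

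The old HSC ABC list held 45386 summits, the old HSC list 108787 and the young HSC list 33248. Each summit had a score from the authors' peak calling, read as a −log10 q-value, which depends on read depth. Depth is unknown, so scores only ranked summits within their own list, rank 1 being the highest score. Equal-length lists kept the 33248 highest-scoring summits of each. Each peak name in a list carries a sample name, and these went against the labels: the old HSC ABC list carried oHSC-H3K9ac-2, the old HSC list oHSC-ABC-H3K9ac-1 and the young HSC list oHSC-H3K9ac-1. Groups follow the labels, and every direction below is that of the libraries as labelled, since by the names in the peak lists none would be young. Each group had 1 library, so no difference could be checked against replicates, no test was run, and intervals cover counting error only. Of 6 HSC genes, 3, 6 and 5 had a summit within 1 kb of a start site in the old HSC ABC, old HSC and young HSC libraries. Kit, Cd34 and Hlf lacked one in the old HSC ABC list, with nearest summits at 1300, 1330 and 2179 bp, and Hlf lacked one in the young HSC list, at 2183 bp. Of 7 genes of other tissues and lineages, 0, 1 and 0 had one; the exception was Ins2, at rank 74559 of the old HSC list.

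All of the 8 loci held a summit in every library. The loci, 958 kb together, held 37 summits in the old HSC ABC list, 100 in the old HSC list and 31 in the young HSC list. These were 0.0815% (95% Clopper-Pearson interval 0.0574 to 0.112), 0.0919% (0.0748 to 0.112) and 0.0932% (0.0634 to 0.132) of the lists. The 3 intervals overlap, and the 3.23-fold ratio of old HSC to young HSC at the loci stood beside 3.27-fold for the whole lists. In equal-length lists the loci held 29, 27 and 31 summits. Per locus the median was 4.5, 13.5 and 3.5 summits, against 3, 6 and 2 over all protein-coding genes. In equal-length lists the medians were 3.5, 2.5 and 3.5, against 2, 2 and 2 over all genes. None of these medians takes account of record length, which was 267 kb for Sgms1 and 172 kb for Sgms2. Of all protein-coding genes 76.1%, 81.7% and 72.0% had any summit in a locus drawn the same way, and 70.1% had one in each library.

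**Figure D1:**
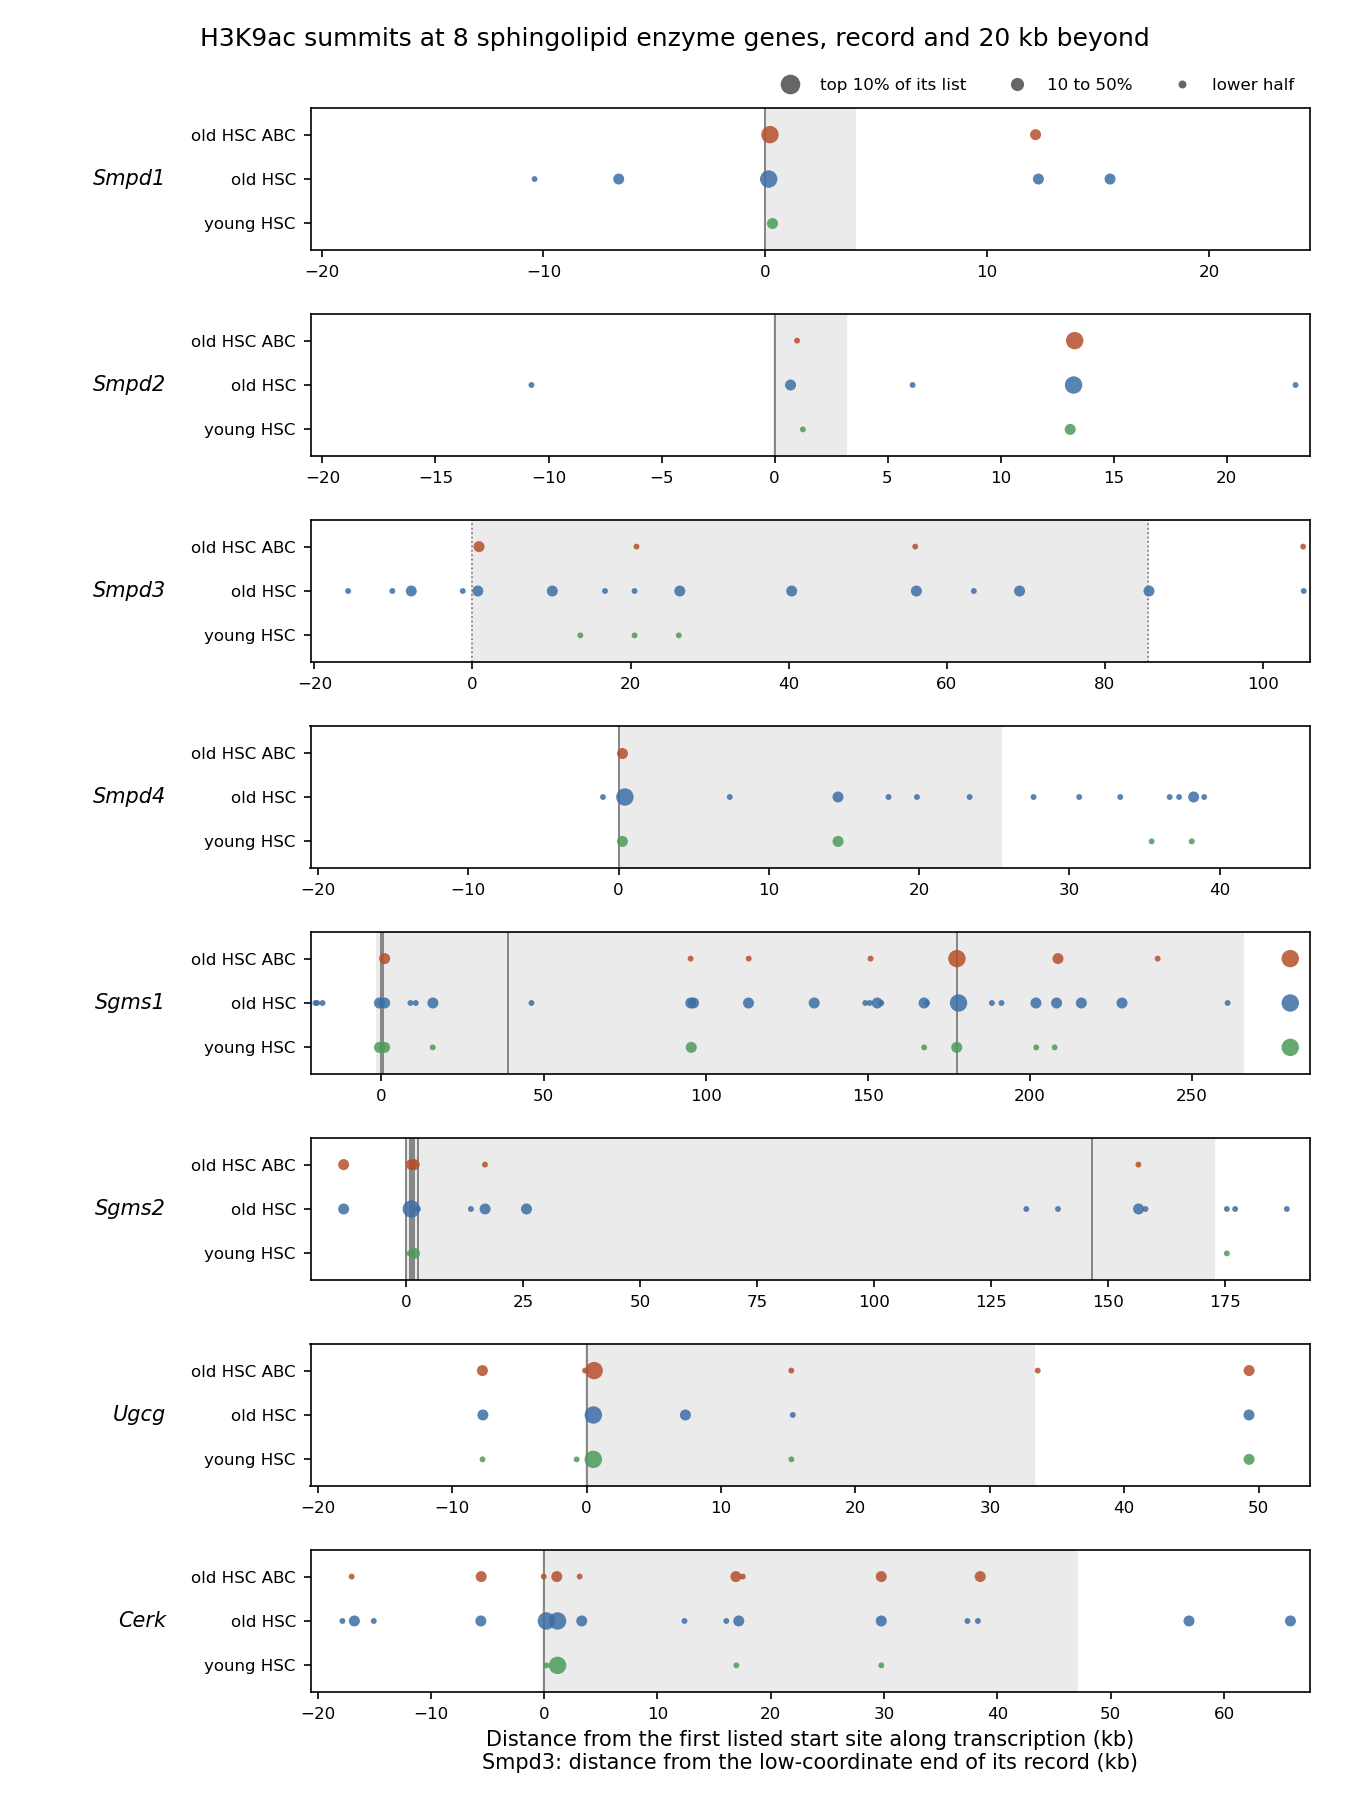
Positions of the summits at each gene in the old HSC ABC, old HSC and young HSC libraries (rows), by distance from the first listed start site in kb; grey is the gene record, vertical lines are start sites (dotted: record ends of Smpd3), and larger points rank higher in their own list. The summits near start sites recur in all 3 rows at Smpd1, Smpd4, Sgms1, Sgms2, Ugcg and Cerk, while Smpd3 carries scattered, low-ranking ones.

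**Figure D2:**
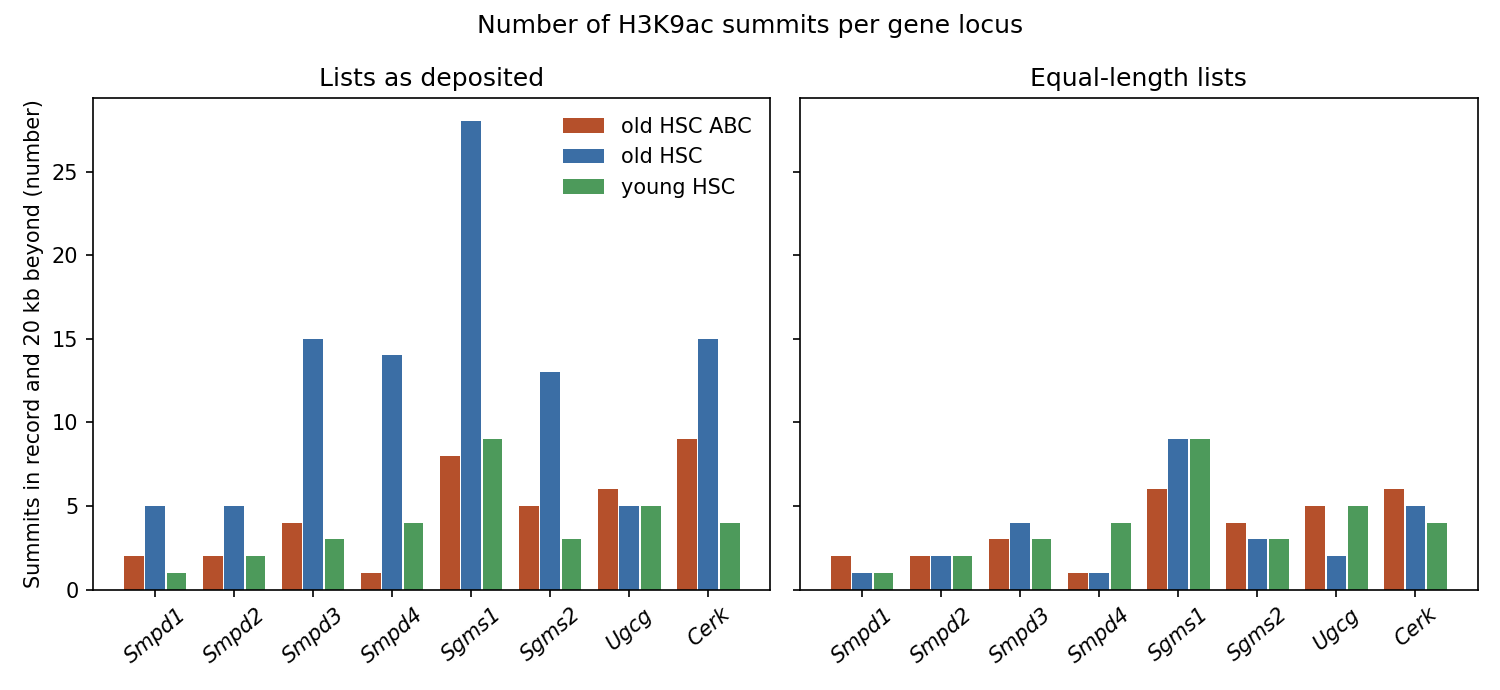
Number of summits per locus (vertical axis) in the old HSC ABC, old HSC and young HSC lists, as deposited on the left and in equal-length lists on the right. The excess of the old HSC list, up to 28 summits at Sgms1, is not seen in equal-length lists, where no locus holds more than 9.

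Start sites came from a RefSeq promoter table made on GRCm38.p6, which shares its coordinates with mm10. It covers 7 of the genes with 15 start sites. Smpd3 has no entry and no strand there, so both its record ends were used, and a call for it may rest on the end of the gene. A gene was counted as marked if a summit lay within 1 kb of such a site. All 8 genes were marked in the old HSC ABC library, all 8 in the old HSC library and 6 in the young HSC library, against 45.3%, 57.5% and 44.2% of all protein-coding genes. Smpd1, Smpd4, Sgms1, Sgms2, Ugcg and Cerk were marked in all 3, as were 39.2% of all genes. In equal-length lists 7 genes were marked in old HSC ABC, all but Cerk (42.6% of all genes), 7 in old HSC, all but Smpd3 (48.4%), and 6 in young HSC (44.2%), with 5 marked in all 3 (37.7%). Sgms1 and Sgms2 have 4 and 6 listed start sites and thus more chances to be counted.

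Among the sphingomyelinase genes, Smpd1 encodes the acid enzyme of the lysosome, the one lost in Niemann-Pick disease of types A and B (chromosome 7, 105554360 to 105558389, forward strand). Its locus held 2, 5 and 1 summits in the old HSC ABC, old HSC and young HSC lists. Of these, 1 in old HSC ABC and 2 in old HSC lay inside the neighbouring record of Apbb1, and without a flank each library had 1. The highest-ranking one lay just inside the gene in each library, 209 bp past the start site in old HSC ABC (rank 1467), 153 bp in old HSC (rank 5357) and 281 bp in young HSC (rank 5518). Within its own list the old HSC ABC summit was the highest of any start-site summit of the 8 genes. The start site lies 1 bp from that of Gm39063, a long non-coding RNA gene on the other strand, so the signal cannot be assigned to Smpd1 alone. The 300 bases from 250 before the start site (RefSeq, GRCm38.p6, as for the other sequences) are shown because the single young HSC summit of the locus lay near this shared start. The 16 CpG dinucleotides are in capitals. The start-site summits of all 3 libraries lie past the end of these bases.
Smpd1 start, chr7:105554110-105554409, forward strand: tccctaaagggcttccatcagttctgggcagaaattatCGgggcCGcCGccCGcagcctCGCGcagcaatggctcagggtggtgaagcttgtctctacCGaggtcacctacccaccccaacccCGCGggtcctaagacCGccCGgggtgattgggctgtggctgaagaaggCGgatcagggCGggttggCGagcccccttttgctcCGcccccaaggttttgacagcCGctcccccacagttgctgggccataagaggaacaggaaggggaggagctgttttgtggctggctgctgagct

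Smpd2 encodes a neutral sphingomyelinase of intracellular membranes (chromosome 10, 41487172 to 41490370, reverse strand). One summit per library lay inside its 3.20 kb record: at 41489344 in old HSC ABC, 996 bp past the start site (rank 31895), at 41489632 in old HSC, 708 bp past it (rank 12992), and at 41489087 in young HSC, 1253 bp past it (rank 19420). The 3 summits lie within 545 bp of each other, and only the young HSC one falls outside the 1 kb window. The start site of Ppil6, on the other strand, is 99 bp away. The highest-ranking summit of the locus lay 10 kb beyond the gene, inside the record of Mical1, an actin-oxidising monooxygenase gene, in all 3 libraries (ranks 2874, 2664 and 5615 in old HSC ABC, old HSC and young HSC).

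Smpd3 encodes the neutral sphingomyelinase known for its part in exosome release (chromosome 8, 106252548 to 106337965). It was the weakest of the 8 loci by rank. The best summit of the locus ranked 18731 of 45386 in old HSC ABC, 21789 of 108787 in old HSC and 24440 of 33248 in young HSC. The old HSC list held 15 summits there, 4 of them inside the neighbouring record of Prmt7, against 4 in the old HSC ABC list and 3 in the young HSC list. Near the record ends lay an old HSC ABC summit at 106253374, 826 bp inside the low end, and old HSC summits at 106253223, 675 bp inside the low end, and at 106338154, 189 bp beyond the high end. The nearest old HSC ABC summit to the high end was 19693 bp away, so the old HSC ABC call rests on the low end alone. Which end is the start was not given. The nearest young HSC summit was 13646 bp from an end. In equal-length lists neither old HSC end summit remained, while the old HSC ABC one did. A single place, near 106273053, carried a summit in every library, at ranks 28109, 88727 and 24440.

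Smpd4 encodes a neutral sphingomyelinase of the endoplasmic reticulum and nuclear envelope (chromosome 16, 17619354 to 17644830, forward strand). Its start-site summit lay 259 bp past the start in old HSC ABC (rank 5134), 420 bp in old HSC (rank 5447) and 256 bp in young HSC (rank 8146). In the old HSC ABC library this was the one summit of the locus. The old HSC list held 14 and the young HSC list 4, of which 7 and 2 lay in the neighbouring records of Ccdc74a and Med15. A second site inside the gene, 14.6 kb past the start, was listed in old HSC (17633955, rank 44829) and young HSC (17633959, rank 13816) and had no old HSC ABC summit within 14342 bp.

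The synthase genes had the most start sites and the largest records. Sgms1 encodes the sphingomyelin synthase of the Golgi (chromosome 19, 32122727 to 32389885, reverse strand, 267 kb). Its locus held 8 summits in old HSC ABC, 28 in old HSC and 9 in young HSC, and 6, 9 and 9 in equal-length lists. Of its 4 listed start sites, the innermost, at 32211013, carried the highest-ranking start-site summit in every library. The old HSC ABC summit lay 30 bp past it (rank 2636), the old HSC summit 528 bp past it (rank 2134) and the young HSC summit 26 bp before it (rank 5305). At the outer start site at 32388049 the summits lay 538, 538 and 531 bp past it, at lower ranks of 11130, 14143 and 9807. A summit at 32389113, 601 bp before the outermost start site, was listed in old HSC (rank 15482) and young HSC (rank 10059), and the nearest old HSC ABC summit was 1602 bp away. The long non-coding RNA gene 2700046G09Rik starts on the other strand at 32389216, 704 bp from the outermost Sgms1 start. This summit lies nearer to that start than to the Sgms1 one, so it cannot be assigned to Sgms1 alone. The start site at 32349316 had no summit within 7 kb in any library. The innermost and outer starts are shown because the one with fewer CpGs carried the higher-ranking summit: capitals mark 13 CpG dinucleotides in the first sequence and 51 in the second. The first sequence holds the old HSC ABC and young HSC summits but not the old HSC one. The second holds no summit of any library.
Sgms1 innermost start, chr19:32210964-32211263, reverse strand: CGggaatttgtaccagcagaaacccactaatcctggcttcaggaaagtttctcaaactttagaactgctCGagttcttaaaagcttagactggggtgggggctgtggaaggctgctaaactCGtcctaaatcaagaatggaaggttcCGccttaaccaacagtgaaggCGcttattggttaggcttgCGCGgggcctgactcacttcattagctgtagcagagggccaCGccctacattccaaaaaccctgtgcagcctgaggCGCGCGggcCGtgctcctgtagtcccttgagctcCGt
Sgms1 outer start, chr19:32388000-32388299, reverse strand: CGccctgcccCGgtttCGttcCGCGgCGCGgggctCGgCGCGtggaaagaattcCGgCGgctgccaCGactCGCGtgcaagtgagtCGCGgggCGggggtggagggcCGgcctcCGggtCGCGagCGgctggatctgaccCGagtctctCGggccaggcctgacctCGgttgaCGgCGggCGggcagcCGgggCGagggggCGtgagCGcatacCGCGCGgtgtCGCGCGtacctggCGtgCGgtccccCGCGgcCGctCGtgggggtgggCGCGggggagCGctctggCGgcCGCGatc

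Sgms2 encodes the sphingomyelin synthase of the plasma membrane (chromosome 3, 131318985 to 131491443, reverse strand). Here the outer starts carried the summits. Of its 6 start sites, the 4 from 131489042 to 131490660 had a summit within 1 kb in all 3 libraries. The highest-ranking summit there was at 131490381 in old HSC ABC (rank 9848), 131490389 in old HSC (rank 6417) and 131489751 in young HSC (rank 6113). The old HSC ABC and old HSC positions are 8 bp apart, and the young HSC one lay nearer the next start site, 18 bp past it. That next site also had an old HSC ABC summit, at 131489783. Gm36753, a long non-coding RNA gene, starts on the other strand at 131490516, 144 bp from a Sgms2 start. The highest-ranking old HSC ABC and old HSC summits lie nearer to that start than to any Sgms2 one. They cannot be assigned to Sgms2 alone. The inner start at 131344908 had no summit within 7 kb of it in any library, unlike the innermost start of Sgms1. The outer start with most CpGs (44) and the unmarked inner one (5) are shown side by side, with CpGs in capitals.
Sgms2 outer start, chr3:131490181-131490480, reverse strand: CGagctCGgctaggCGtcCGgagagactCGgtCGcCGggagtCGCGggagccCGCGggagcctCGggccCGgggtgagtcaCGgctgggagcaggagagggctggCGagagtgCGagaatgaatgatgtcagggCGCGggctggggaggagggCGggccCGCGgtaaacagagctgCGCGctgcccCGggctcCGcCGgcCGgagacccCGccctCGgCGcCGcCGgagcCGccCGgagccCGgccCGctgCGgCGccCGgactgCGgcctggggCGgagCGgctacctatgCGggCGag
Sgms2 inner start, chr3:131344859-131345158, reverse strand: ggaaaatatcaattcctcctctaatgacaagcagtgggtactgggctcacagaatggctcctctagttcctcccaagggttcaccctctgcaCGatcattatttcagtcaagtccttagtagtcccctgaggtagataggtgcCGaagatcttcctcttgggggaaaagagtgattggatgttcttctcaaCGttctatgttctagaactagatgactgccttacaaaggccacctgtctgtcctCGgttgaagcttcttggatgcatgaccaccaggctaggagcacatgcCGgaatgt

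Away from the starts, 3 places of the Sgms2 locus had a summit in old HSC ABC and old HSC and none in young HSC. They were at 131335047 and 131335007 (ranks 25805 and 11121), at 131474663 and 131474634 (ranks 44382 and 26836), and 13413 bp upstream of the gene in old HSC ABC, at 131504856 and 131504857 (ranks 14223 and 47432). The old HSC ABC summit at 131474663 and the old HSC summit at 131504857 were absent from their equal-length lists. Over the genome 11.9% of sites, joined within 500 bp, had this pattern in the lists as deposited. The young HSC library had 1 summit away from the starts, at 131316142, which the old HSC list shared and the old HSC ABC list did not.

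Ugcg encodes glucosylceramide synthase, the first step towards gangliosides and other glycosphingolipids (chromosome 4, 59189507 to 59222833, forward strand). Its locus held 6 summits in old HSC ABC, 5 in old HSC and 5 in young HSC. The main summit lay 561 bp past the start site in old HSC ABC (59190111, rank 2462), 502 bp in old HSC (59190052, rank 2701) and 497 bp in young HSC (59190047, rank 2884). A further 3 places were listed in all libraries: 7754, 7718 and 7745 bp before the start site in old HSC ABC, old HSC and young HSC, then 15231, 15339 and 15234 bp past it, and 49291, 49284 and 49291 bp past it, beyond the end of the gene. No other protein-coding record lies within 20 kb of Ugcg. The sequence at its start is shown as the most CpG-dense of the 15, with 53 CpGs in capitals. The main summit lies past the end of these bases in each library.
Ugcg start, chr4:59189300-59189599, forward strand: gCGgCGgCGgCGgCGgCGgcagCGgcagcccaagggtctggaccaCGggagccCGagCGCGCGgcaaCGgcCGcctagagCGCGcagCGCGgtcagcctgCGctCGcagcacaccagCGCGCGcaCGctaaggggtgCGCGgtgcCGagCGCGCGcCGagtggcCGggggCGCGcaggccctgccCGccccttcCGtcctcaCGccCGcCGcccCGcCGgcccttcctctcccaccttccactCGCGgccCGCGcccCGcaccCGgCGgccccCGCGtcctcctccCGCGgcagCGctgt

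Cerk encodes ceramide kinase, which makes ceramide 1-phosphate (chromosome 15, 86139101 to 86186259, reverse strand). Its strongest summit lay beyond the 1 kb window, 1114 bp past the start site in old HSC ABC (86185027, rank 7890), 1185 bp in old HSC (86184956, rank 4068) and 1183 bp in young HSC (86184958, rank 2393). Within 1 kb lay a second summit, 36 bp before the start in old HSC ABC (rank 39805) and at 86185945, 196 bp past it, in old HSC (rank 9604) and young HSC (rank 25154). The old HSC ABC one was absent from its equal-length list. The antisense non-coding gene Gm15569 starts 413 bp inside Cerk, at 86185728. In each library the strongest summit lies nearer to that start than to the Cerk one, so it cannot be assigned to Cerk alone. The locus held 9 summits in old HSC ABC, 15 in old HSC and 4 in young HSC, of which 1, 5 and 0 lay nearer to or inside the neighbours Gramd4 and Tbc1d22a. Without a flank the counts were 7, 9 and 4. Upstream of the gene, a place 5.6 kb before the start was listed in old HSC ABC (86191696, rank 19316) and old HSC (86191727, rank 20836), as was one about 17 kb before it (86203125, rank 37738, and 86202887, rank 13313), which is nearer to Tbc1d22a than to Cerk. Neither had a young HSC summit. A summit at 86156391, 29.8 kb inside Cerk, was at the same base in all 3 lists.

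**Figure D3:**
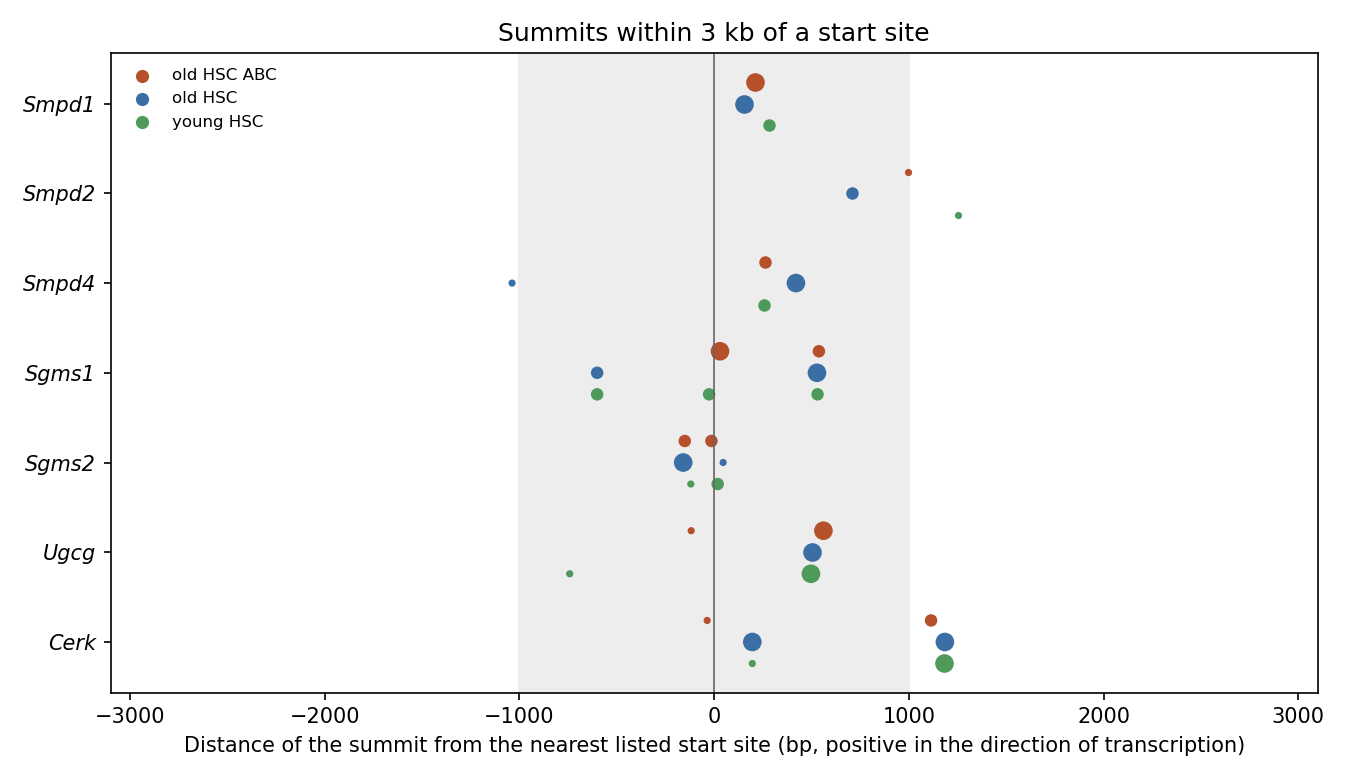
Distance in bp of each summit within 3 kb of a start site from the nearest listed start, positive in the direction of transcription, for the 7 genes with listed start sites; colours are the old HSC ABC, old HSC and young HSC libraries, larger points rank higher in their own list and grey is the 1 kb window. The Smpd2 summits at 996, 708 and 1253 bp and the strongest Cerk summits at 1114, 1185 and 1183 bp lie at the edge of the window.

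**Figure D4:**
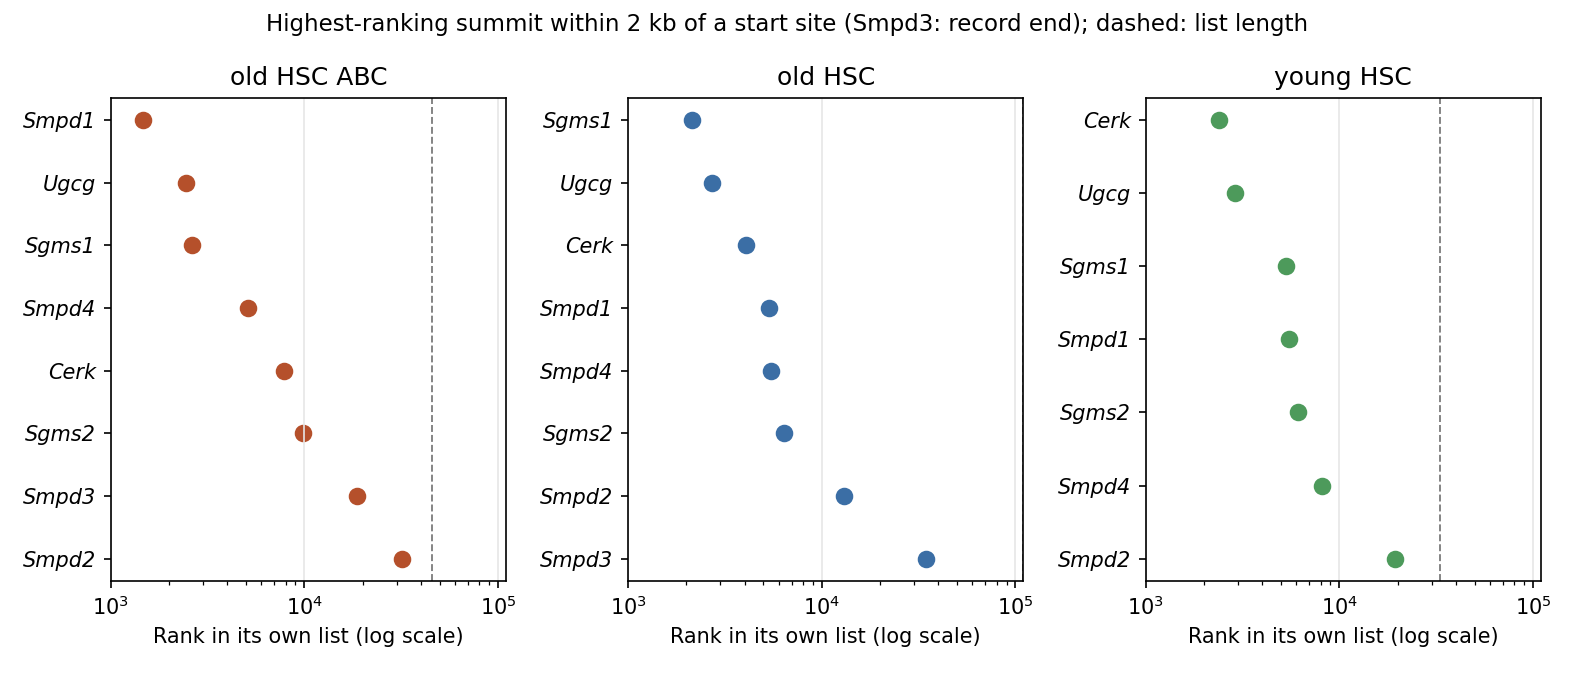
Rank within its own list (log scale, left is high) of the best summit within 2 kb of a start site, or of a record end for Smpd3, in old HSC ABC, old HSC and young HSC. Ugcg stands next to the top in each panel, with ranks of 2462, 2701 and 2884, and Smpd2 and Smpd3 take the lowest places, Smpd3 having no such summit in young HSC.

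Set in order within each list by the best summit within 2 kb of a start site, Smpd1 led in old HSC ABC, Sgms1 in old HSC and Cerk in young HSC. The Smpd1 and Cerk summits of this order cannot be assigned to those genes alone, as given above. Smpd2 and Smpd3 came last in all 3 lists. With no replicates, it cannot be said which neighbours in these orders differ beyond the spread between libraries. Across the 11917 genes with a summit inside the record or within 1 kb of it in all 3 lists, ranked by the best such summit, the genes with the most similar triple of log10 ranks were Med13l for Smpd1, Nek11 for Smpd2, Frmpd1 for Smpd3, Arl2bp for Smpd4, Slc22a21 for Sgms1, Cep95 for Sgms2, Afg3l2 for Ugcg and Acot11 for Cerk. The Euclidean distances over the 3 libraries lay between 0.0186 and 0.0560.

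The start-site summits of these genes lay mostly downstream of the start. The nearest summit was past the start in 4 of 7 genes in old HSC ABC, 7 of 7 in old HSC and 5 of 6 in young HSC, with medians of 30, 420 and 226 bp. Over all marked genes with a listed start 66.8%, 66.2% and 68.5% were downstream, with medians of 111.5, 114 and 159 bp. A start site of another gene on the other strand lay within 1 kb for 5 of the 7 genes, Smpd1, Smpd2, Sgms1, Sgms2 and Cerk, against 16.2% of 17492 protein-coding genes.

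CpG number went with the presence of a summit over all 21263 start sites of protein-coding genes. Of those with 5 or fewer CpGs in the 300 bases, 7.69% had a summit within 1 kb in all 3 libraries, against 56.8% of those with 11 to 20 and 58.4% of those with 31 or more. The 15 start sites of these genes had a median of 14 CpGs, against 13 over all. All 6 with 11 to 20 CpGs were marked in the 3 libraries, as were all 3 with 31 or more, 0 of the 2 with 21 to 30 (63.4% of all in that class), and 1 of the 4 with 5 or fewer. The exception among these 4 was the Sgms2 start at 131489042, which lies close to CpG-denser starts. The 2 with 21 to 30 CpGs each lacked a summit within 1 kb in 1 library only. For the Sgms1 start at 32388512 this was old HSC ABC, with the nearest summit at 1001 bp. For Smpd2 it was young HSC, with the nearest at 1253 bp. Over all single start sites 38.6% were marked in all 3 libraries.

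**Figure D5:**
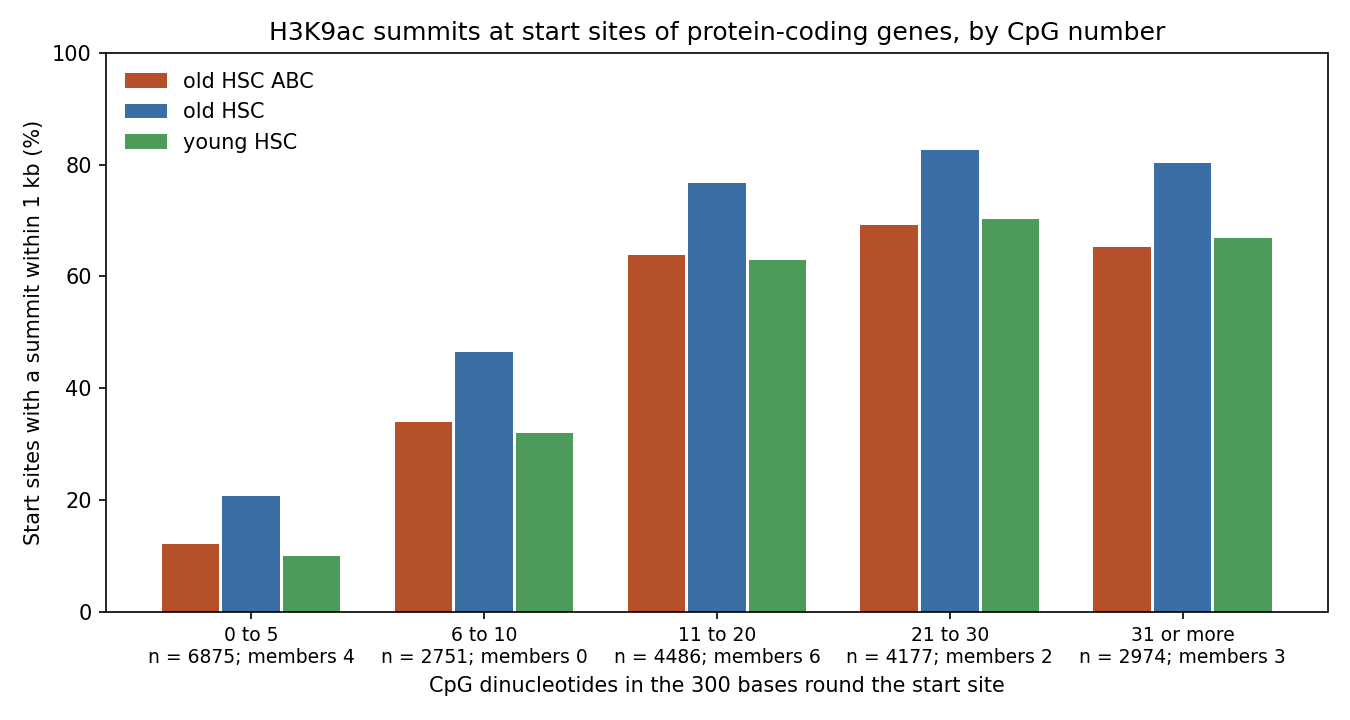
Percent of start sites of protein-coding genes with a summit within 1 kb, by number of CpG dinucleotides in the 300 bases round the start (250 before, 50 after), for the old HSC ABC, old HSC and young HSC libraries. The 4 start sites of the 8 genes with 5 or fewer CpGs fall in the class with the lowest shares, 12.1% in old HSC ABC and 20.6% in old HSC.

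Of 8 motifs searched on both strands, none of which contains another, the GC box GGGCGG was in 9 of the 15 windows, against 46.2% of all windows of that length. These 9 were of Smpd1, Smpd2, Sgms1, Sgms2, Ugcg and Cerk, and Smpd3 had no window. The AP-1 motif TGANTCA was at the innermost Sgms1 start and at 2 outer Sgms2 starts, against 6.99% of all windows. The E-box CACGTG was at Smpd2 and at 1 Sgms2 start (7.84%), and the TATA box TATAAA and the GATA motif AGATAA only at the Sgms1 start with no summit within 7 kb (12.6% and 9.65%). CCAAT was in 4 of the 15 windows (38.2%), the ETS motif CCGGAA in 3 (18.7%) and the RUNX motif TGTGGT in 1 (15.0%). These are matches of letters in the windows and no measure of binding.

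By the labels, old HSC against young HSC was the comparison by age, though the names in the peak lists go against those labels. Smpd2 and Smpd3 were marked in old HSC alone, 2 of 8 genes, against 14.5% of all genes, and no gene of the 8 was marked in young HSC alone (1.14% of all). The young HSC summit of Smpd2 lay 1253 bp from the start, past the window; when no summit within 5 kb was required for absence, only Smpd3 differed (10.4% of all genes), and none in the other direction (0.151%). In equal-length lists only Smpd2 was in old HSC alone (6.62%) and none in young HSC alone (2.47%). The old HSC locus held more summits than the young HSC one at 7 of 8 genes, all but Ugcg, where the counts were equal, as at 75.5% of all genes, and at none did young HSC hold more (1.35%). In equal-length lists it did at 2, Smpd3 and Cerk (25.6%), and the young HSC locus did at 2, Smpd4 and Ugcg (27.5%).

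Old HSC ABC was set against old HSC for what goes with the ABC label. This comparison shares the old HSC library with the one by age, so they are not independent. No gene of the 8 was marked in one of the libraries alone, against 1.67% of all genes in old HSC ABC alone and 13.9% in old HSC alone. With absence over 5 kb the members also gave 0 on both sides (0.32% and 9.02% of all genes). In equal-length lists Smpd3 was marked in old HSC ABC alone (2.42%) and Cerk in old HSC alone (8.15%). For Smpd3 the old HSC ABC call rests on the low record end. At the high end only old HSC, as deposited, had a summit within 1 kb. Old HSC ABC held more locus summits at Ugcg (3.34% of all genes) and old HSC at the other 7 (71.8%). In equal-length lists the counts were 4, for Smpd1, Sgms2, Ugcg and Cerk, and 2, for Smpd3 and Sgms1, each direction being 26.8% of all genes. The additional old HSC ABC summit at Smpd1 in equal-length lists, at 105566541, lies inside Apbb1. Old HSC had a summit 129 bp from it (105566670, rank 52639), which its equal-length list left out.

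Between old HSC ABC and young HSC, whose lists are closer in length, Smpd2 and Smpd3 were marked in old HSC ABC alone both as deposited (5.44% of all genes) and in equal-length lists (4.04%). With absence over 5 kb only Smpd3 was (3.5%), and none was in young HSC alone (2.46%). The Smpd2 summits that differ, at 996 and 1253 bp from the start, are 257 bp apart. The Smpd3 call rests on the low end of its record, which may not be its start. No gene was marked in young HSC alone as deposited (4.4%), and Cerk was in equal-length lists (5.62%). Old HSC ABC held more summits at 5 loci, Smpd1, Smpd3, Sgms2, Ugcg and Cerk (43.4% of all genes), and young HSC at Smpd4 and Sgms1 (15.5%). In equal-length lists old HSC ABC held more at 3, Smpd1, Sgms2 and Cerk (26.2%), and young HSC at 2, again Smpd4 and Sgms1 (28.3%). At Smpd1 this rests on the summit inside Apbb1; without summits nearer another gene Smpd1 had 1 summit in each of these libraries.

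Joining summits of the 3 lists within 500 bp gave 108 sites in the 8 loci. Of these, 18 were in all 3 libraries, or 16.7% (10.2 to 25.1), against 14.3% of 124141 sites over the genome. A further 14 were in old HSC ABC and old HSC without young HSC, with an interval of 7.27 to 20.8% (11.9% over the genome), 8 were in old HSC and young HSC (6.31%) and 1 in old HSC ABC and young HSC (1.45%). In old HSC alone were 60, or 55.6% (45.7 to 65.1; 53.6%), 3 were in old HSC ABC alone (8.21%) and 4 in young HSC alone (4.31%). Except for sites in old HSC ABC alone, whose interval of 0.577 to 7.90 ends below 8.21%, the intervals held the genome value. In equal-length lists that share was 8 of 49 sites, or 16.3% (7.32 to 29.7), against 18.7%. Of the other equal-length sites 12 were in all 3 libraries (24.2% over the genome), 5 in old HSC ABC and old HSC (7.62%), 5 in old HSC and young HSC (7.3%), 4 in old HSC ABC and young HSC (5.66%), 5 in old HSC alone (17.6%) and 10 in young HSC alone (19%). Sites shared by all libraries lay within 2 kb of a start site in 9 of 18 cases. The same share over the genome was not taken, so this count says nothing particular to these genes.

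Of 32 other genes of sphingolipid turnover 21, 22 and 19 were marked in old HSC ABC, old HSC and young HSC, and of 25 glycosphingolipid genes 17, 21 and 16, beside 45.3%, 57.5% and 44.2% of all genes. Between old HSC and young HSC, 3 of 32 and 5 of 25 were in old HSC alone (14.5% of all genes) and none in young HSC alone (1.14%). Those that also differed in equal-length lists were Smpdl3b, Acer2, an alkaline ceramidase gene, B4galt5, a lactosylceramide synthase gene, and Hexa, a lysosomal hexosaminidase subunit gene. B4galt5, which acts on the product of Ugcg, had an old HSC summit at rank 17727, with nearest old HSC ABC and young HSC summits at 14442 and 34911 bp. Hexa ranked 21054 in old HSC ABC and 18466 in old HSC, with the nearest young HSC summit at 21251 bp. Between old HSC ABC and old HSC, 2 of 32 and 0 of 25 were in old HSC ABC alone (1.67% of all genes), Asah1, acid ceramidase, and Sgpp1, a sphingosine 1-phosphate phosphatase, and 3 and 4 were in old HSC alone (13.9%). The Asah1 summit lay at 958 bp in old HSC ABC and the nearest old HSC one at 1153 bp, either side of the 1 kb limit. For Sgpp1 the nearest summits lay at 89 bp in old HSC ABC, 1883 bp in old HSC and 1337 bp in young HSC. St3gal5, the GM3 synthase gene, was marked in old HSC (rank 11085) and young HSC (rank 11682), and its nearest old HSC ABC summit was 37775 bp away. Between old HSC ABC and young HSC, 2 of 32, Asah1 and Sgpp1, and 2 of 25, Fa2h and Hexa, were in old HSC ABC alone (5.44% of all genes). In young HSC alone were 0 and 1, St3gal5 (4.4%). Fa2h ranked 20461 in old HSC ABC, with the nearest young HSC summit at 7532 bp.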

How the data were processed

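H3K9ac CUT&Tag was done on 3 libraries, 1 per group, grouped by title. The authors' files list 1 bp summits with a score and no sequence or depth; the deposited score is read as the −log10 q-value of MACS2 because the lowest value in every list is about 1.30, which is −log10 of 0.05. The tools named are edgeR, MACS2, Picard and BWA and the build is mm10, per the submitters' processing notes; for their roles, versions, settings and any control library the sources used here give nothing. Peaks were taken as called per library. Positions are 1-based. Gene records (49997, of which 21887 protein-coding were used) and start sites (17492 of them; both record ends for the other 4395) came from RefSeq tables of GRCm38.p6. Summits were counted with Python 3.11.15 and pandas 2.3.3, and the counting was checked on simulated summits. Intervals are exact Clopper-Pearson, 95%, from scipy 1.17.1. Alternatives were scores of at least 5 or 10, equal-length lists, merging within 500 bp, other flanks and windows, sharing within 250 or 1000 bp, and leaving out summits nearer another gene. The members, lists and naming rule were chosen with earlier results of these data known; named genes are the 8 members, their neighbours, pathway genes that differed in both list settings and the nearest gene by ranks. Prmt7, Ppil6 and other neighbours are named for holding summits of a locus or starting beside a member. No region of artefact signal was filtered out.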

Additional observations from a re-analysis of the deposited data

How the results depend on the processing

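Counts at the loci followed list length and score limits. The 37, 100 and 31 locus summits of old HSC ABC, old HSC and young HSC became 14, 36 and 12 at a score of at least 5 and 6, 16 and 6 at 10; the old HSC count became 27 in equal-length lists and 62 inside the records. Genes with a start-site summit were 5 in old HSC ABC at a score of 5, 4 in old HSC ABC and 3 in young HSC at a score of 10, and 5 in old HSC within 500 bp. For old HSC against young HSC, the 2 genes marked in old HSC alone became 1 in equal-length lists (Smpd2), within 500 bp, within 2 kb and with absence over 5 kb (Smpd3 each), and those in young HSC alone became 2 within 500 bp (Sgms1 and Ugcg). For old HSC ABC against old HSC, equal-length lists gave 1 on each side (Smpd3 and Cerk) and 500 bp gave 2 (Sgms1 and Ugcg) and 1 (Smpd3). For old HSC ABC against young HSC, the 2 in old HSC ABC alone became 0 within 500 bp and 1 within 2 kb or with absence over 5 kb (Smpd3), and Cerk was the 1 in young HSC alone in equal-length lists. For the 500 bp and 2 kb windows and the score limits no share of all genes is given here. The counts at those settings therefore cannot be set against a general rate. Of the summits in the 8 loci, 58.6% of old HSC ABC ones had an old HSC counterpart within 500 bp in equal-length lists (89.2% as deposited, against 72.3% of the whole list), 63.0% of old HSC ones an old HSC ABC counterpart (32.0%, whole list 30.2%), 55.6% of old HSC ones a young HSC counterpart (24.0%, whole list 23.8%) and 48.4% of young HSC ones an old HSC counterpart (77.4%, whole list 77.4%). These whole-list values are for the lists as deposited, and none is given for equal-length lists. Shares within 250 or 1000 bp stayed inside the intervals, and of the 24 counts per locus and library merging summits moved 0 by over 1.5 times. Merging could not change these counts, because no pair of summits of the same list lay within 500 bp in a locus. The same 24 counts moved in 21 cases at a score of 5, 22 at a score of 10, 12 with no flank, 10 with a 5 kb flank, 8 in equal-length lists and 7 without summits nearer another gene; without a flank the old HSC counts became 1 at Smpd1, against 5, and 6 at Smpd4, against 14. No paired analysis was possible because each group has 1 library, and for the same reason no library could be left out. Depth limits what an absent summit shows.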

Other observations

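The highest-ranking summit of the 8 loci in the old HSC ABC, old HSC and young HSC lists was not at a start site. It lay at chromosome 19, 32108156, 14571 bp past the end of Sgms1 and 5016 bp from the record of Asah2, the neutral ceramidase gene, at ranks 493 in old HSC ABC, 1512 in old HSC and 418 in young HSC. Its base was the same in all 3 lists, which held for 358 positions in the genome and, within the 8 loci, otherwise for the summit at 86156391 inside Cerk. Of these 358 positions 15.6%, 16.5% and 18.2% were among the 1000 highest summits of the old HSC ABC, old HSC and young HSC lists. Their median ranks were 4106 of 45386, 3953.5 of 108787 and 3679.5 of 33248, so positions at the same base in all lists tended to rank high. Whether this place is a regulatory site or a region of artefact signal was not tested. Asah2 itself had no summit within 1 kb of a start site in any library.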
